A study of Homo sapiens with 16 samples.

Results

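Histone mRNA processing factors are the proteins that give the mRNAs of replication-dependent histones their unusual end, and 6 of their genes are described here: SLBP, LSM10, LSM11, CASP8AP2, NPAT and ERI1. They were taken by symbol from a list of stem-loop binding, U7 snRNP and histone locus factors, and are 6 of the 58302 gene identifiers in the counts. Each symbol matched 1 identifier, and all 6 genes passed the expression filter of every comparison. RNA was sequenced from HEK293 cells, an established cell line derived from human embryonic kidney, in which Gemin5 was silenced with a small interfering RNA, a short double-stranded RNA that directs cleavage of a matching mRNA. The 16 libraries, from 4 independent samples of each condition, fall into 4 groups of 4. Input Ctrl and Input siRNAG5 are RNA of cytoplasmic lysates from control and Gemin5-silenced cells, and Polysome Ctrl and Polysome siRNAG5 are RNA from the pooled polysomal fractions of sucrose gradients loaded with such lysates, after ribosomes had been held with cycloheximide. The labels call the Ctrl cells untreated, whereas the treatment protocol lists a control siRNA and the study describes Ctrl, where it quantifies the silencing by immunoblot, as cells with that control siRNA. These sources differ, and which holds for the sequenced Ctrl libraries is not settled here. Time after transfection is not given for these libraries in the sources used here. All libraries were made from polyadenylated RNA.

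Most mRNAs end in a poly(A) tail, but the mRNAs of replication-dependent histones, made during DNA replication, end just after a short stem-loop. SLBP binds that stem-loop and stays with the mRNA through processing, export, translation and decay. The U7 snRNP, a particle built on the small U7 snRNA, pairs with the pre-mRNA downstream of the stem-loop and brings the endonuclease that cuts between them. LSM10 and LSM11 encode ring proteins particular to this particle, where they take the places that SmD1 and SmD2 hold in the spliceosomal snRNPs. CASP8AP2 encodes FLASH, which binds LSM11 and helps to recruit the cleavage complex, and NPAT encodes a coactivator of histone gene transcription that is a target of cyclin E and CDK2. FLASH and NPAT are found together in the histone locus body, the nuclear body at the histone gene clusters. ERI1 encodes a 3′ exonuclease that binds the stem-loop beside SLBP and trims and degrades histone mRNA. Gemin5 is the snRNA-binding subunit of the SMN complex, which places Sm and Lsm rings on snRNAs, U7 among them.

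The sequence on which SLBP and ERI1 act is shown first because it links the 6 proteins to their RNA. It was read from the canonical transcripts of the reference annotation (GENCODE v44, GRCh38) as a stem of 6 base pairs around a loop of 4 bases. The capitals mark the stem arms, with up to 5 bases before the stem and all bases after it up to the annotated end.
H2BC12: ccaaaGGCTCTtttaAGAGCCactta
H2AC25: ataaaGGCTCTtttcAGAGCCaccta
H1-2: caaaaGGCTCTtttcAGAGCCacca
H4C11: taaaaGGCCCTtttcAGGGCCacccta
The first 3 stem-loops lie in the genes with the highest mean CPM (read counts scaled to the size of the library, by TMM factors over all 16) among the histone genes that hold one, at chr6:27146366-27146381, chr1:228457369-228457384 and chr6:26055744-26055759 on the minus strand. The H4C11 stem-loop, at chr6:27824459-27824474 on the plus strand, shows the other common stem. Of 65 replication-dependent histone genes, 63 held such a stem-loop in 8 forms, and 36 of these had the letters shown for H2AC25. Over all protein-coding genes, 68 of 19708 held one (0.345%), and none of the 6 factors was among them. The sequence that SLBP and ERI1 bind is thus not in the annotated mRNAs of the 6 factors, in these letters.

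The U7 snRNA itself was not measured. Its gene RNU7-1 (chr12:6943816-6943878, plus strand, 63 bases) was at 0 reads in all 16 libraries, which were made from polyadenylated RNA. Its first 30 bases, shown because they hold the letters at which the ring with LSM10 and LSM11 is built, are printed here with the Sm site letters AATTTNT in capitals.
RNU7-1: cagtgttacagctcttttagAATTTGTcta
Of 1901 annotated snRNA genes, 33.3% held these letters on the transcribed strand. The siRNA against Gemin5 was CCUUAAUCAAGAAGAGAAAUU, and its 19 target bases were found in GEMIN5 alone among canonical transcripts (chr5:154904608-154904626, minus strand). The letters AAGAGAA, which pair with bases 2 to 8 of its guide strand, occurred on the transcribed strand 1 time in the SLBP transcript, 2 times in CASP8AP2 and 4 times in NPAT, and not in LSM10, LSM11 or ERI1. Such a match is a description, and 43.6% of all protein-coding canonical transcripts held one.

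Reads counted on genes ranged from 11145324 to 24511299 per library. GEMIN5 was lower in all siRNAG5 libraries than in all Ctrl libraries of the same fraction, with a log2 FC of -1.40 in Input and -1.44 in Polysome. All 7 markers of HEK293 cells fixed for this check were detected in every group, PAX2 at the lowest level. Along the third principal component of all genes, Polysome Ctrl 1, siRNAG5 1 and siRNAG5 4 (scores of 35.3 to 38.5) stood apart from Polysome Ctrl 3, Ctrl 4, siRNAG5 2 and siRNAG5 3 (-26.3 to -16.02), with Polysome Ctrl 2 between them at 2.16. Reads of 12 liver genes, which HEK293 cells should lack, summed to 137 and 120.3 CPM in Input Ctrl 3 and Input Ctrl 4 and to 73.9 to 153 CPM in the 4 Polysome Ctrl libraries. In the other 10 libraries they summed to 0.371 to 2.58 CPM, and 5 of the 12 genes were at 0 in all Input siRNAG5 libraries and 6 in all Polysome siRNAG5 libraries. Calls of the 6 genes that are gained or lost without the 3 libraries set apart, or without Input Ctrl 3 and 4, are given below with both values. For other named genes only the main fit is given. In these bulk samples, fewer cells expressing a gene and less RNA of it per cell cannot be told apart.

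The 6 mRNAs differed widely in level. As RPKM, reads scaled to depth and to the length of the canonical transcript, Input Ctrl libraries held 174 ± 12.1 of LSM10 and 84.6 ± 2.85 of SLBP, then 2.18 ± 0.498 of ERI1, 1.38 ± 0.118 of LSM11, 0.519 ± 0.114 of CASP8AP2 and 0.448 ± 0.0793 of NPAT (SD, n = 4). SLBP thus stood 38.7 times above the next gene, ERI1, in RPKM. In this order CASP8AP2 and NPAT overlapped over the 4 libraries, and all other neighbours were apart. The order was the same in the other groups, with more overlap: ERI1 and LSM11 overlapped in both siRNAG5 groups, LSM10 and SLBP in both Polysome groups, and CASP8AP2 and NPAT in all groups but Polysome siRNAG5. The order of LSM10 and SLBP rests on the length taken. LSM10 is a short mRNA of 860 bases, and over the union of all annotated exons (1506 bases) its RPKM was below that of SLBP in every group but Input Ctrl, and ERI1 was below LSM11 in Input siRNAG5. Reads behind these levels were many for SLBP (1587 to 4186 per library) and LSM10 (822 to 2469) and few for CASP8AP2 (29 to 226) and NPAT (22 to 105).

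**Figure D1:**
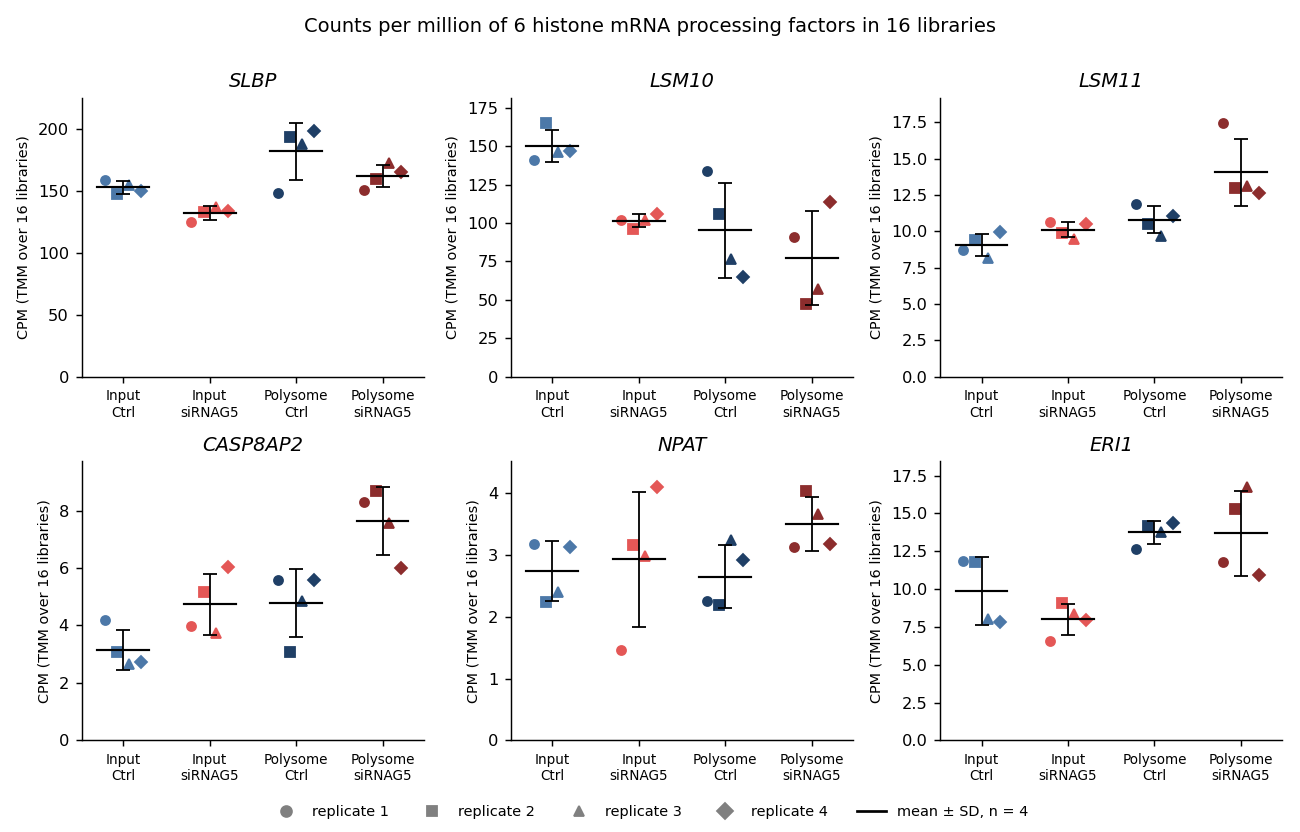
Each panel plots 1 gene in CPM (linear axis from 0) in the 4 groups, with the replicate number as the shape of the point and the mean ± SD (n = 4) in black. LSM10 in Input is between 141 and 165 in Ctrl and between 96.2 and 106 in siRNAG5, while its Polysome libraries spread from 47.0 to 134 and the treatments overlap there.

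SLBP, which encodes the stem-loop binding protein, was slightly lower in Input after silencing and was not called. The gene lies at chr4:1692731-1712344 on the minus strand, with 8 exons in its canonical transcript of 1810 bases. In Input its levels were 159, 148, 155 and 150.2 CPM in the Ctrl libraries and 125, 133, 137 and 134 CPM in the siRNAG5 libraries. Every siRNAG5 library lay below every Ctrl library, and the log2 FC was -0.195 (SE 0.063, edgeR adjusted p = 0.0147). A call required both an adjusted p under 0.05 and a log2 FC above 0.5 or below -0.5, so SLBP passed the first condition only. Of all genes tested in Input, 34.2% had treatments that did not overlap, and 19.1% had an adjusted p under 0.05 and a lower value. SLBP missed the first condition as well with offsets for length and GC content (-0.12, edgeR adjusted p = 0.103), in 1 fit of 16 libraries (-0.21, edgeR adjusted p = 0.175) and without Input Ctrl 3 and 4, the libraries with liver reads (-0.20, edgeR adjusted p = 0.0765). In Polysome its levels were 148, 194, 188 and 198 CPM in Ctrl and 151, 160.2, 172 and 165 CPM in siRNAG5. Polysome Ctrl 1, 1 of the 3 libraries set apart, was the lowest of the 8, and the groups overlapped, with a log2 FC of -0.12 (95% confidence interval -0.42 to 0.17, edgeR adjusted p = 0.590).

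For SLBP the log2 FC of Polysome over Input was above 0 in both treatments, and neither main fit called it. Its percentiles among all genes were 66.6 in Ctrl and 69.2 in siRNAG5 cells. In siRNAG5 cells all Polysome libraries lay above all Input libraries, with a log2 FC of 0.38 (SE 0.0998, edgeR adjusted p = 0.00754), where 50.4% of all genes had fractions that did not overlap. In Ctrl cells the log2 FC was 0.26 (SE 0.12, edgeR adjusted p = 0.0834), and Polysome Ctrl 1 lay within the range of Input. Without that library, the only Ctrl library set apart, the value was 0.34 (edgeR adjusted p = 0.00547), and with offsets for length and GC content it was 0.45 (edgeR adjusted p = 0.00484). Without the 3 Polysome libraries set apart, the difference in siRNAG5 cells was 0.51 on the log2 scale and passed both conditions (edgeR adjusted p = 5.64e-06), as it did with the offsets (0.56, edgeR adjusted p = 0.000233). Over all genes, 4562 and 3134 were called higher in these settings, beside 3535 in the main fit.

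LSM10, a ring protein of the U7 snRNP, was lower after Gemin5 silencing in Input and was the only one of the 6 genes called lower there. It lies at chr1:36391238-36397908 on the minus strand, and its canonical transcript of 2 exons is short, at a percentile of 3.73 among the lengths of 12433 genes. Input levels were 141, 165, 146 and 147 CPM in Ctrl and 102, 96.2, 102 and 106 CPM in siRNAG5. The groups were clear of each other, and the log2 FC was -0.55 (SE 0.068, 95% confidence interval -0.69 to -0.41, edgeR adjusted p = 2.16e-07). Among all 14134 genes tested in Input, 6.02% were called lower. The interval reaches across the limit of -0.5, and without Input Ctrl 2, the highest library, the log2 FC was -0.496 and the size condition was missed. With all 16 libraries in 1 fit, the adjusted p was 0.0972 at a log2 FC of -0.56.

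In Polysome, LSM10 varied more between libraries of a treatment than any other of the 6 genes. Its levels were 134, 106, 76.8 and 64.6 CPM in Ctrl and 90.6, 47.0, 57.0 and 114 CPM in siRNAG5. The 4 libraries above 90 CPM were the 3 set apart and Polysome Ctrl 2, which lies between the sets, and they came from both treatments. A fit with the library set as a term left out Polysome Ctrl 2. In that fit the set went with a log2 difference in LSM10 of 0.96, against -0.37 to 0.20 for the other 5 genes. The SD of log2 CPM was 0.47 in Ctrl and 0.59 in siRNAG5, where the median over all genes was 0.30 and 0.29. The log2 FC of siRNAG5 over Ctrl was -0.27 with a 95% confidence interval from -0.92 to 0.37 (edgeR adjusted p = 0.580), an interval that holds both 0 and the Input value. Without the 3 libraries it was -0.61 (edgeR adjusted p = 0.0409) and passed both conditions. Over all genes, 1788 were called lower in that setting, beside 577 in the main fit. With the library set as a term the log2 FC of LSM10 was -0.37 (edgeR adjusted p = 0.00804), short of the size set for a call. It was -0.029 with offsets for length and GC content and -0.053 without Polysome Ctrl 1 (edgeR adjusted p = 0.932 and 0.927), so the Polysome value of LSM10 depends on these choices. Within each set the mean CPM of siRNAG5 was below that of Ctrl, 102 against 134 CPM among the 3 libraries (1 of Ctrl) and 52.0 against 70.7 CPM among the other 4 (2 of each treatment).

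**Figure D2:**
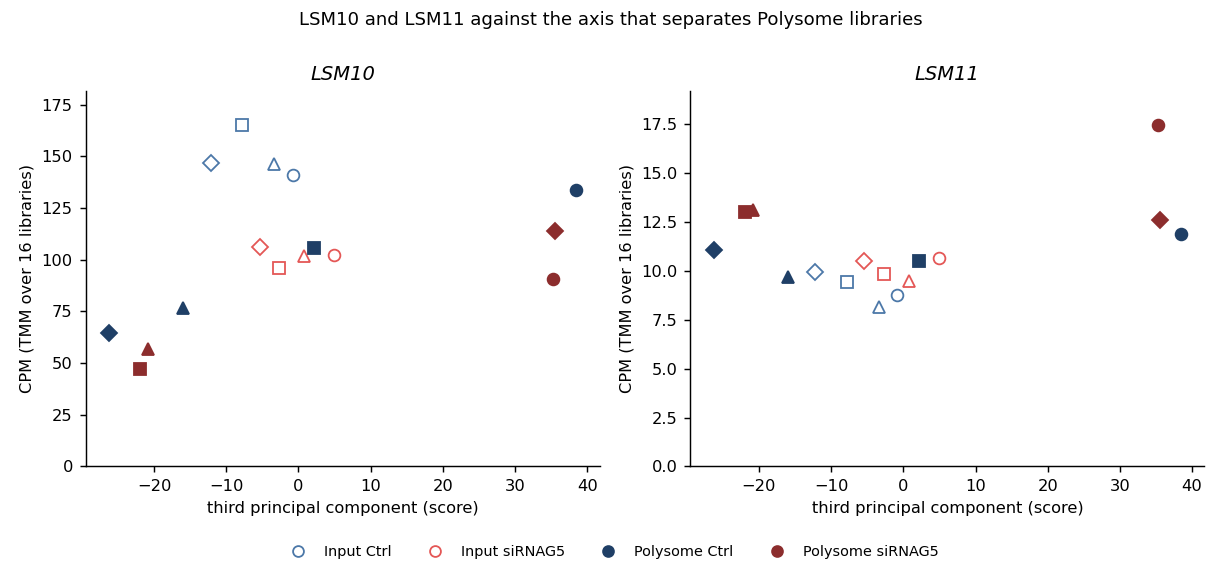
LSM10 (left) and LSM11 (right) in CPM (linear axis from 0) are plotted against the score of each library on the third principal component of all genes. Shapes give the replicate number as in the plot of levels by group, and filled points are Polysome. LSM10 lies between 47.0 and 76.8 CPM in the 4 Polysome libraries at negative scores and between 90.6 and 134 CPM in the other 4, while LSM11 shows no such step.

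LSM11, the other U7-specific ring protein and the larger of the pair, did not follow LSM10. It lies at chr5:157743712-157760709 on the plus strand with 4 exons and a transcript of 6567 bases. Input levels were 8.75, 9.42, 8.17 and 9.94 CPM in Ctrl and 10.6, 9.85, 9.50 and 10.5 CPM in siRNAG5. The groups overlapped, and the log2 FC was 0.17 (95% confidence interval -0.070 to 0.41, edgeR adjusted p = 0.270). In Polysome its levels were 11.9, 10.5, 9.70 and 11.1 CPM in Ctrl and 17.5, 12.99, 13.1 and 12.6 CPM in siRNAG5. Every siRNAG5 library lay above every Ctrl library there, yet the log2 FC of 0.42 (SE 0.16) had an adjusted p of 0.112 in edgeR and was not called. Of all genes tested in Polysome, 18.3% had groups that did not overlap.

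The 2 ring proteins enter the same particle, and their mRNAs can be set side by side per length. In RPKM, LSM10 stood 113 to 137 times above LSM11 in the Input Ctrl libraries and 73.3 to 81.8 times in the Input siRNAG5 libraries. In Polysome the ratio was 44.5 to 85.9 in Ctrl and 27.6 to 68.8 in siRNAG5. The ratio of the 2 mRNAs was thus apart between treatments in Input and overlapped in Polysome. Over the union of exons the mean ratio was 72.3 and 43.8 in Input Ctrl and Input siRNAG5. The canonical transcript and the union differ in length for LSM10 and not for LSM11, so the size of the ratio rests on the transcript used and its order between groups does not.

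Between the fractions, LSM10 was called lower in Polysome in Ctrl cells and LSM11 higher in siRNAG5 cells, in fits without offsets for length and GC content. In Ctrl cells LSM10 was lower in all Polysome libraries than in all Input libraries, with a log2 FC of -0.64 (SE 0.18, edgeR adjusted p = 0.00896), where 18.8% of the 13666 genes tested were called lower and 44.3% had fractions that did not overlap. Without Polysome Ctrl 4 it was -0.49, under the size set for a call, and without Polysome Ctrl 1, set apart, it was -0.85 (edgeR adjusted p = 4.56e-05). In siRNAG5 cells it was -0.32 (95% confidence interval -0.80 to 0.15, edgeR adjusted p = 0.232), and -0.79 without the 3 libraries set apart (edgeR adjusted p = 3.05e-07). LSM11 differed by 0.26 in Ctrl cells (edgeR adjusted p = 0.143) and was called higher in Polysome in siRNAG5 cells, at 0.55 (SE 0.14, edgeR adjusted p = 0.00542), where 23.9% of the 14795 genes tested were called higher. All Polysome siRNAG5 libraries were above all Input siRNAG5 libraries for LSM11. Without Polysome siRNAG5 1, its highest library, the value was 0.44 and the call was lost. Offsets for length and GC content ended both calls: LSM10 was then at -0.28 in Ctrl (edgeR adjusted p = 0.0896) and at 0.21 in siRNAG5, and LSM11 at -0.10 in Ctrl and 0.068 in siRNAG5 (edgeR adjusted p = 0.722).

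CASP8AP2, which encodes FLASH, was called higher after silencing in Input, but the call rests on few reads. It lies at chr6:89829894-89874436 on the plus strand, with 9 exons and a transcript of 6088 bases. Its Input counts were 29 to 42 reads per Ctrl library and 60 to 115 per siRNAG5 library, and the siRNAG5 libraries were also the deeper ones. As CPM these are 4.18, 3.07, 2.67 and 2.75 in Ctrl and 3.99, 5.16, 3.73 and 6.04 in siRNAG5. Input Ctrl 1 lies above 2 of the siRNAG5 libraries, so the groups overlap. The log2 FC was 0.60 (SE 0.19, 95% confidence interval 0.21 to 0.99, edgeR adjusted p = 0.0132), and 10.5% of all genes were called higher. Left out in turn, Input siRNAG5 4 and Input Ctrl 3 each ended the call (log2 FC 0.45 and 0.53, edgeR adjusted p = 0.0819 and 0.0508). Without Input Ctrl 3 and 4 together, which carried the liver reads and were the lowest for this gene, the log2 FC was 0.41 (edgeR adjusted p = 0.190). The part of the liver reads in the result was not tested further.

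In Polysome, CASP8AP2 showed the largest value of the 6 genes. Its levels were 5.57, 3.09, 4.85 and 5.58 CPM in Ctrl and 8.29, 8.69, 7.58 and 5.99 CPM in siRNAG5. All siRNAG5 libraries were above all Ctrl libraries, and the log2 FC was 0.73 (SE 0.22, 95% confidence interval 0.25 to 1.201, edgeR adjusted p = 0.0590), just short of a call. It was called by DESeq2 (adjusted p = 0.0221), without the filter on low counts (edgeR adjusted p = 0.0324) and with all 16 libraries in 1 fit (edgeR adjusted p = 0.0203). It was also called without the 3 libraries set apart (0.91, edgeR adjusted p = 0.0131). With the library set as a term, in a fit that left out Polysome Ctrl 2, its lowest library, it was called too (0.60, edgeR adjusted p = 0.00626). Over all genes, 840, 825, 1077, 1327 and 1476 were called higher in these settings, beside 569 in the main fit. Over the 10 alternatives other than leaving out 1 library the adjusted p of CASP8AP2 ranged from 0.00626 to 0.0950. With 1 library left out in turn its edgeR adjusted p ranged from 0.0382 to 0.149, and 7 of 8 such fits did not call it. The 4 Polysome Ctrl libraries all carried the liver reads and the Polysome siRNAG5 libraries did not, so the 2 cannot be told apart in this fraction.

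CASP8AP2 was also higher in Polysome than in Input. The log2 FC was 0.60 in Ctrl cells (SE 0.23, edgeR adjusted p = 0.0405) and 0.77 in siRNAG5 cells (SE 0.20, edgeR adjusted p = 0.00599), both called. In each treatment the lowest Polysome library overlapped Input. In Ctrl cells, where 20.8% of genes were called higher, leaving out any 1 of 6 libraries ended the call, Polysome Ctrl 1, set apart, among them (0.52, edgeR adjusted p = 0.0732). With offsets for length and GC content the values were 0.22 and 0.17, and neither was called.

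NPAT, the coactivator of histone gene transcription, was the least abundant of the 6 and was called in no comparison. It lies at chr11:108157215-108222638 on the minus strand, with 18 exons and a transcript of 6113 bases. Input levels were 3.18, 2.24, 2.40 and 3.12 CPM in Ctrl and 1.46, 3.15, 2.98 and 4.10 CPM in siRNAG5, and the siRNAG5 libraries held both the lowest and the highest value. The log2 FC was 0.14 (95% confidence interval -0.34 to 0.62, edgeR adjusted p = 0.670). In Polysome the levels were 2.25, 2.19, 3.23 and 2.91 CPM in Ctrl and 3.12, 4.04, 3.67 and 3.18 CPM in siRNAG5. The groups overlapped there through Polysome Ctrl 3, and the log2 FC was 0.44 (95% confidence interval -0.0056 to 0.89, edgeR adjusted p = 0.185). Polysome and Input differed by -0.019 in Ctrl and by 0.33 in siRNAG5 (edgeR adjusted p = 0.955 and 0.301). These values rest on 22 to 105 reads per library, and the intervals leave room for a change in either direction in Input.

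ATM, a kinase of the DNA damage response, starts 406 bases from NPAT on the opposite strand. It was called higher in Input (log2 FC 0.72, SE 0.16, edgeR adjusted p = 0.000775) with groups that did not overlap, and was at 0.52 in Polysome (edgeR adjusted p = 0.154). The strand setting of the counting is not given in the sources used here, but no exon of NPAT is shared with another counted gene in the annotation. TMEM129, whose start lies 9014 bases from that of SLBP on the same strand, was called higher in Input (0.99, edgeR adjusted p = 1.79e-07) and in Polysome (0.83, edgeR adjusted p = 0.0126). Each neighbour thus had a call in Input that the gene beside it lacked, and the difference between neighbours was not tested.

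ERI1, the 3′ exonuclease, was not called after silencing in either fraction. It lies at chr8:9002147-9116746 on the plus strand, with 7 exons and a transcript of 4521 bases. Input levels were 11.8, 11.8, 7.995 and 7.86 CPM in Ctrl and 6.59, 9.05, 8.36 and 7.99 CPM in siRNAG5. Input Ctrl fell into a high and a low pair, and the low pair, Ctrl 3 and Ctrl 4, were the libraries with liver reads. The log2 FC over all 8 libraries was -0.29 (95% confidence interval -0.59 to -0.0011, edgeR adjusted p = 0.109), and without that pair it was -0.55 and passed both conditions (edgeR adjusted p = 0.00732). This setting called 977 genes lower over all genes, beside 851 in the main fit. It was chosen after the values had been seen and leaves 2 Ctrl libraries. In Polysome the levels were 12.6, 14.2, 13.8 and 14.4 CPM in Ctrl and 11.8, 15.3, 16.8 and 10.9 CPM in siRNAG5. The siRNAG5 libraries held both ends of the range, the 2 set apart being the low ones, and the log2 FC was 0.039 (95% confidence interval -0.32 to 0.40, edgeR adjusted p = 0.908). Without the 3 libraries set apart it was 0.24 (edgeR adjusted p = 0.243).

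ERI1 was higher in all Polysome libraries than in all Input libraries of the same treatment, where 44.3% of all genes in Ctrl and 50.4% in siRNAG5 cells had fractions that did not overlap. In Ctrl cells the log2 FC was 0.49 (SE 0.16, edgeR adjusted p = 0.0192), just under the size set for a call. Without Polysome Ctrl 1, set apart, 3047 genes were called higher over all genes, beside 2842 in the main fit. ERI1 was then at 0.52 and passed both conditions (edgeR adjusted p = 0.00935). Without Input Ctrl 3 or Input Ctrl 4, the libraries with liver reads, it missed both conditions. The values were 0.40 and 0.39 (edgeR adjusted p = 0.0821 and 0.0810). With 1 library left out in turn, 4 of 8 such fits called ERI1. In siRNAG5 cells, where 23.9% of genes were called higher, it was 0.86 (SE 0.18, edgeR adjusted p = 0.00146) and was called, the largest value between the fractions among the 6 genes. With offsets for length and GC content it was 0.34 in siRNAG5 cells and 0.19 in Ctrl cells, not called in either. ERI1, CASP8AP2 and NPAT are AT-rich (38.0%, 38.1% and 37.4% GC, at percentiles of 9.07, 9.36 and 6.77 among 12433 genes), whereas LSM10 has 57.8% GC.

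**Figure D3:**
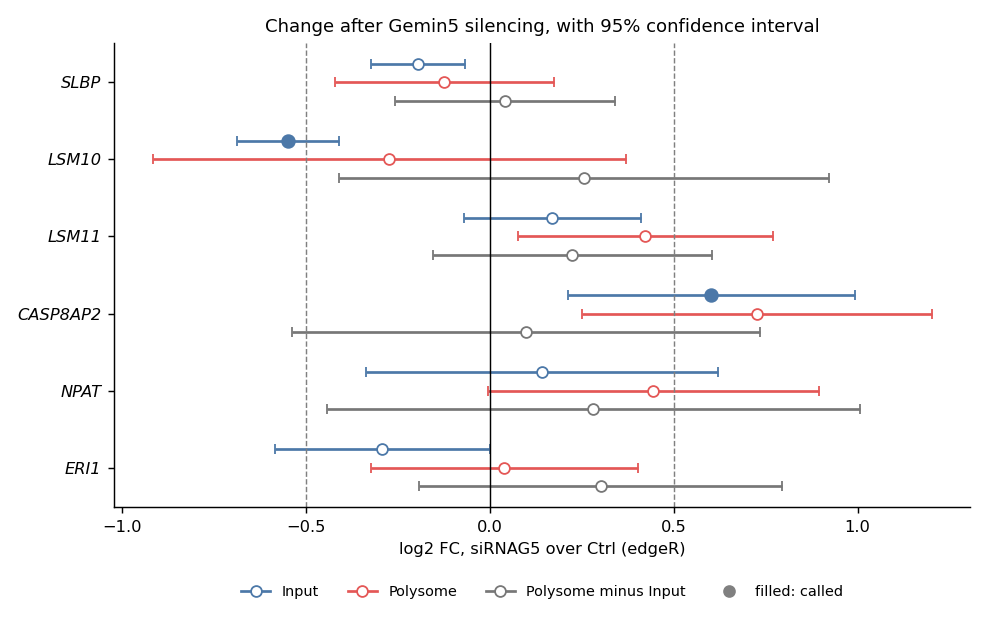
The log2 FC of siRNAG5 over Ctrl (x axis) is drawn for each gene in Input (blue) and Polysome (red), with the Polysome value minus the Input value from the fit of 16 libraries (gray). Bars are 95% confidence intervals, dashed lines mark 0.5 in either direction, and filled points are called. Only LSM10 (-0.55) and CASP8AP2 (0.60) in Input are filled, and every gray interval holds 0.

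Over the 6 genes, silencing gave 1 call lower (LSM10) and 1 higher (CASP8AP2) in Input, where 16.5% of all genes were called in either direction. The median log2 FC of the 6 was -0.026, beside 0.036 over all genes tested. In Polysome none of the 6 was called, where 7.95% of the 14420 genes tested were, and their median was 0.23 beside 0.034. LSM11 and CASP8AP2 had an unadjusted p under 0.05 there, as did 27.7% of all genes, and DESeq2 called CASP8AP2. These counts are too small to set the 6 apart from the background.

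The edgeR test of whether the change differed between the fractions called no gene among 14958, and 7.28% had an unadjusted p under 0.05, none of the 6 included. Over all genes this count of 0 did not hold in every setting. Without the 3 libraries set apart, edgeR called 659 genes lower and 106 higher. DESeq2 over the 16 libraries called 11 lower and 18 higher. None of the 6 was called in either setting. This difference, Polysome minus Input, was above 0 for all 6, from 0.041 for SLBP to 0.30 for ERI1, with edgeR adjusted p from 0.838 to 0.973 and at percentiles of 63.9 to 86.7 among all genes. The sign is not firm: it turned for LSM10 without the 3 libraries set apart (-0.089), for CASP8AP2 with offsets for length and GC content (-0.058) and for SLBP without Polysome Ctrl 1 (-0.023). The widest interval was that of NPAT, from -0.44 to 1.01, and the narrowest that of SLBP, from -0.26 to 0.34. A call in Input without one in Polysome, as for LSM10, is therefore no evidence here that the fractions differ.

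Between the fractions, 2 of the 6 were called in Ctrl cells (LSM10 lower, CASP8AP2 higher) and 3 in siRNAG5 cells (LSM11, CASP8AP2 and ERI1, all higher), where 39.6% and 45.1% of all genes were called. These shares mean that a call between the fractions is common for any gene. The order of the 6 from lowest to highest log2 FC began with LSM10 and NPAT in both treatments and ended with CASP8AP2 and ERI1, in either order. With offsets for length and GC content this order did not hold, and SLBP was highest in both treatments (0.45 and 0.56). The 2 sets of values share no libraries.

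**Figure D4:**
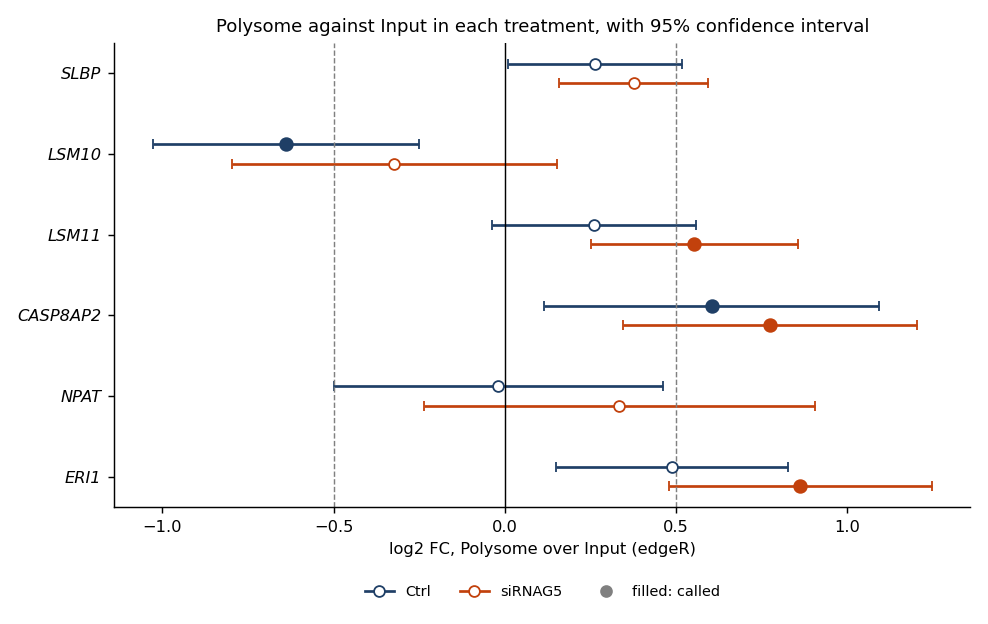
The log2 FC of Polysome over Input (x axis) is drawn for each gene in Ctrl (dark blue) and in siRNAG5 (orange) cells, with 95% confidence intervals, dashed lines at 0.5 in either direction and filled points for called genes. In these fits, without offsets for length and GC content, LSM10 is the lowest gene in both treatments (-0.64 and -0.32), and CASP8AP2 (0.60) and ERI1 (0.86) are the highest in Ctrl and siRNAG5.

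The other genes of the pathway, 47 in 8 lists, all passed the filters. In Input 3 were called lower and 1 higher, beside 6.02% and 10.5% of all genes, and in Polysome 1 lower and 2 higher, beside 7.95% called in either direction, with medians of -0.071 and -0.13 over the 47. The 5 Sm proteins that share the U7 ring with LSM10 and LSM11 (SNRPB, SNRPD3, SNRPE, SNRPF and SNRPG) were all below 0 in Input, from -0.40 to -0.55, each with an adjusted p under 0.05 in edgeR and with groups that did not overlap. Only SNRPG passed the size condition (-0.55, edgeR adjusted p = 7.19e-08), and over all genes 19.1% had an adjusted p under 0.05 and a lower value. SmD1 and SmD2, which LSM10 and LSM11 replace, were at -0.31 and -0.27, also with adjusted p under 0.05. LSM10 thus had a log2 FC like that of the Sm genes in Input, and LSM11 did not; the difference between LSM11 and them was not tested. In Polysome the 5 Sm genes were at -0.58 to -0.87, and only SNRPF was called (-0.87, edgeR adjusted p = 0.0204).

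Of the 4 genes of the cleavage complex (SYMPK, CPSF2, CPSF3 and CSTF2), which cuts histone pre-mRNA, none was called after silencing in either fraction, with medians of -0.0023 and -0.11. Against Input, 3 of the 4 were called lower in Polysome in each treatment, beside 18.8% of all genes in Ctrl and 21.2% in siRNAG5. Among 7 processing cofactors, SRRT, which encodes ARS2, a partner of the nuclear cap-binding complex, was called lower in Input (-0.62, edgeR adjusted p = 1.31e-07) and was at -0.88 in Polysome (edgeR adjusted p = 0.0530). Among 6 genes of histone gene transcription none was called. In Input, 2 of them were lower and 1 higher with an edgeR adjusted p under 0.05, over a range of -0.39 to 0.45. The list included CCNE1 and CCNE2, the cyclins E that act on NPAT with CDK2. Their mean Input levels were 36.6 and 10.0 CPM in Ctrl and 27.6 and 7.85 CPM in siRNAG5. In Polysome they were 34.9 and 10.2 CPM in Ctrl and 28.0 and 10.5 CPM in siRNAG5. Among 4 genes of SLBP-dependent translation and export, NXF1, the main mRNA export receptor, was called lower in Input (-0.96, edgeR adjusted p = 1.53e-09). CTIF, a translation factor of the nuclear cap-binding complex, was called higher in Input (0.54, edgeR adjusted p = 0.0350) and in Polysome (0.70, edgeR adjusted p = 0.0434). Its level was low, with means of 2.09 and 3.00 CPM in Input Ctrl and Input siRNAG5. In Polysome the means were 4.43 and 6.99 CPM. None of 7 genes of SLBP turnover was called. Of 12 genes of histone mRNA decay, none was called in Input, and ERI2, a relative of ERI1, was called higher in Polysome (0.58, edgeR adjusted p = 0.0497).

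**Figure D5:**
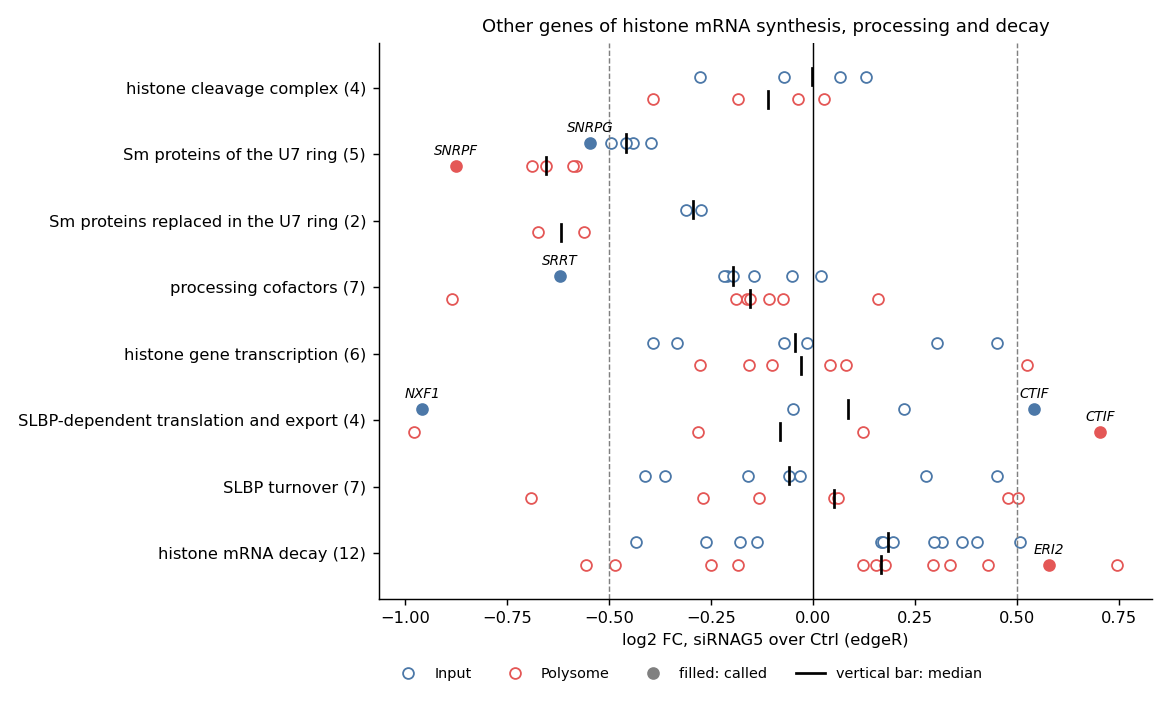
Each point is 1 of 47 genes, placed by its log2 FC of siRNAG5 over Ctrl (x axis) in Input (blue) and Polysome (red), in 8 lists whose number of genes stands in brackets. Filled points are called and named, vertical bars are medians, and dashed lines mark 0.5 in either direction. The 5 Sm genes of the U7 ring all lie below 0 in both fractions.

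The histone mRNAs that these factors process were measured only as far as they were in polyadenylated RNA. Of 65 replication-dependent histone genes, 31 passed the filter in Input and 36 in Polysome, with 8 and 9 called lower, beside 6.02% and 4.00% of all genes, none called higher, and medians of -0.36 and -0.83. In the same comparisons SLBP was at -0.195 and -0.12. A gene passes the filter through the group in which it is high, and these counts are given as a description.

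The genes most like each factor over the 16 libraries, by Pearson correlation of log2 CPM among 14958 genes, were YWHAB (0.975) and PSME3IP1 (0.970) for SLBP, TMEM183A (0.972) and PGAP2 (0.968) for LSM10, and ZMAT3 (0.924) and XRRA1 (0.920) for LSM11. For CASP8AP2 they were KDM7A (0.929) and XRRA1 (0.925), for NPAT ZNF92 (0.850) and SLC19A2 (0.843), and for ERI1 CYLD (0.948) and EPC2 (0.943). Among the 6 themselves the highest values were 0.796 for LSM11 with CASP8AP2 and 0.771 for SLBP with ERI1, and the lowest was -0.726 for LSM10 with CASP8AP2. After the group means were taken out, these fell to 0.261, 0.360 and -0.307. All of these points share libraries, their depth and the differences between the 4 groups.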

How the data were processed

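HEK293 libraries of polyadenylated RNA (Input and Polysome, Ctrl and siRNAG5, 4 each) were analysed. Groups were taken from the sample labels. Per the study's methods, the authors aligned reads to GRCh38 with STAR 2.5.3a, used QoRTs to obtain counts per gene, and deposited these raw counts without normalization. Reads aligned to several places (4.88 to 42.4% of a library), which the counting left apart, and reads on no gene or on more than 1 gene (0.667 to 1.33% and 4.14 to 7.41%) entered neither library sizes nor tests. Of the identifiers, 57532 were named by GENCODE v44. No 2 replicates agreed within sampling noise.

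Comparisons used the quasi-likelihood test of edgeR 4.0.16 under R 4.3.3 (TMM factors, filterByExpr, Benjamini-Hochberg adjustment over all genes tested). siRNAG5 was set against Ctrl in each fraction, Polysome against Input in each treatment, and the difference between fractions was tested over 16 libraries. CPM and RPKM use TMM factors over the 16 libraries. Principal components were computed from log2 CPM (prior count 2) with numpy. Alternatives were RLE factors, no filter, DESeq2 1.42.0, unadjusted p, no size limit, a replicate block, length and GC offsets, 1 fit of 16 libraries, and libraries left out. Chosen after seeing the data were the library-set term, fitted without Polysome Ctrl 2, and the fit without Input Ctrl 3 and 4. The members, lists and tests were chosen with earlier results of these data known. Named were the 6 genes, GEMIN5, up to 3 called genes of each pathway list, direction and comparison, the Sm genes of the U7 ring as a list, 2 neighbours, and the 2 most alike genes of each factor. The cleavage complex, cyclin E and Sm genes without a call were named after their values were seen. The scripts were tested on simulated counts. Sequences were read from GENCODE v44 transcripts, and the siRNA from the labels.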

Additional observations from a re-analysis of the deposited data

Results flagged for a closer look

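In Polysome siRNAG5, LSM11 in replicate 1 (17.5 CPM) stood far from the other 3 libraries, the nearest of which was at 13.1 CPM. The gap took 0.892 of the range of the group, above Dixon's 95% critical value for 4 samples. It was the only such case among 24 combinations of gene and group, and chance gives about 1 in 20. Without this library the log2 FC of LSM11 in Polysome was 0.31 (edgeR adjusted p = 0.237).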

How the results depend on the processing

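Of 6 genes, 2 were called for Input, 0 for Polysome, 0 for the difference between fractions, 2 for Ctrl and 3 for siRNAG5 (Polysome against Input). In Input, 1 fit of 16 libraries gave 0 calls. In Polysome, 1 gene (CASP8AP2) was called with no filter, by DESeq2, at an unadjusted p, in 1 fit of 16 libraries and with the library-set term, and 2 (with LSM10) without the 3 libraries set apart. Length and GC offsets gave 0 calls in Ctrl and 1 (SLBP) in siRNAG5, and leaving out the 3 libraries gave 5 in siRNAG5. Over all genes, calls lower and higher in siRNAG5 were 3292 and 3134 with the offsets and 3604 and 4562 without the 3 libraries. The main fit gave 3132 and 3535. In Ctrl the offsets gave 2546 and 2485, beside 2566 and 2842. In Polysome, leaving out the 3 libraries gave 1788 and 1327, beside 577 and 569. In Input, 1 fit of 16 libraries gave 805 and 990, beside 851 and 1479. With 1 library left out in turn, calls numbered 1 to 2 in Input, 0 to 1 in Polysome, 0 to 0 for the difference, 0 to 3 in Ctrl and 2 to 4 in siRNAG5. The other alternatives kept the counts within 1.5 times.

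Values that changed sign lay near 0, came with the offsets or, for the LSM10 difference, came without the 3 libraries set apart. The cause was not tested. With offsets, ERI1 in Polysome was -0.17, the difference for CASP8AP2 -0.058, LSM11 in Ctrl -0.10, and LSM10 and NPAT in siRNAG5 0.21 and -0.28. In 1 fit of 16 libraries ERI1 in Polysome was -0.0045. Without the 3 libraries the difference for LSM10 was -0.089, beside 0.26 in the main fit. NPAT in Ctrl was 0.045 without them, and 0.020 with no filter. With 1 library left out, NPAT in Input ranged from -0.074 to 0.35, ERI1 in Polysome from -0.056 to 0.14, the difference from -0.023 to 0.083 for SLBP and -0.065 to 0.24 for CASP8AP2, and NPAT in Ctrl from -0.12 to 0.054.

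Whether the replicate numbers pair the samples is not settled here. For this check the mean of each gene in its group was taken out of log2 CPM, so the values do not measure likeness of whole libraries. These deviations correlated between same-numbered libraries at -0.034 to 0.069 in Input, -0.53 to 0.48 in Polysome, -0.074 to 0.19 in Ctrl and -0.21 to 0.22 in siRNAG5. For other numbers the values were -0.11 to 0.12, -0.58 to 0.59, -0.17 to 0.12 and -0.26 to 0.26. Of 4 pairs, 1, 0, 2 and 2 were best with their own number. Per the study, Input and Polysome RNA came from the individual lysates, so the fractions may be paired. The main tests treated them as unpaired. With the replicate block, calls numbered 2, 0, 0, 3 and 3, ERI1 in Ctrl being added (0.51). CASP8AP2 and NPAT had the fewest reads (29 to 226 and 22 to 105 per library).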
